A study of Mus musculus with 18 samples.

Results

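The uteri of 3 homozygous (ARE-/-) mice were compared with those of 3 heterozygous (ARE+/-) mice to see what a second altered copy of the interferon gamma gene, Ifng, adds to the heterozygous state. The 6 libraries were taken by their labels for tissue and genotype from 18 libraries that cover the uterus and the ovary in 3 genotypes. All mice were C57B6/J animals of 20 to 25 weeks, and wild-type (WT) uteri, also 3 libraries, give the level without an altered copy. Paired-end sequencing was made from total RNA of the whole organ, isolated with a Zymo kit. The labels do not spell out ARE; in work on Ifng it denotes the AU-rich element of the 3' untranslated region, which shortens the life of the transcript. The genotype labels name no promoter or Cre that would limit the allele to a cell type. No label gives a stage of the estrous cycle or a sequencing batch. Titles mark 1 WT uterus library and 1 ARE-/- ovary library as a backup. The design text speaks of 3 mice per genotype; nothing says more about how the libraries were obtained, so the tests measure the spread between them.

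Interferon gamma is a cytokine released mainly by T cells and natural killer cells. It binds a receptor on most cell types, activates the kinases JAK1 and JAK2, and so switches on chemokines that draw in T cells, GTPases that act against intracellular microbes, and the genes for antigen processing and presentation. In the uterus it is known for its release by natural killer cells in early pregnancy, where it acts on blood vessels.

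Of 57010 annotated genes, 38550 had a count in a uterus library and 24277 passed the filter on low counts and were tested. No gene passed the edgeR quasi-likelihood test between ARE-/- and ARE+/- uteri at an adjusted p of 0.05 (0 of 24277, 0%). The smallest adjusted p was 0.468, shared by 80 genes, so this test called no single gene below changed. Its adjusted p-values are not repeated where they are at or above that. At an unadjusted p under 0.05 there were 927 genes higher and 255 lower in ARE-/- uteri, in all 4.87% of those tested. That share is no higher than the 0.05 that the threshold lets through without any difference. DESeq2, run on the same counts, called 175 genes higher and 13 lower, of 25625 with an adjusted p. The methods thus differed on genes named below. DESeq2 gave adjusted p-values of 1.5e-07 for Cxcl9, 8.3e-07 for Cd3g, 2.2e-06 for Cd8a and 0.00079 for Siglecf. Other named genes failed in DESeq2 too, such as Gbp2 (adjusted p 0.576) and Ccr3 (0.070). All 3 ARE-/- libraries lay above all 3 ARE+/- libraries for 1158 genes, 4.77% of those tested, and below them for 1043 genes, 4.3%. These shares are no higher than a random order of the libraries would give. They are the background for the counts that follow, and the median log2 fold change over all genes was 0.01. The common biological coefficient of variation was 0.411 in the uterus against 0.281 in the ovary.

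Values per library are CPM, that is counts brought to a common library size with each library's TMM factor, on totals of 33185496 to 49720354 counts in the 6 libraries. Uterine genes were present in all of them, with the homeobox gene Hoxa10 between 54.9 and 290.0 CPM and the estrogen receptor gene Esr1 between 136 and 326 CPM. ARE-/- replicate 1 stood apart. Of the 9 uterus libraries it had the highest level of 12 of 13 adipocyte genes, 6 of 6 red cell genes, 7 of 8 bladder and gut genes, 7 of 11 ovary genes and 9 of 14 smooth muscle genes. The bladder gene Upk1a stood at 648 CPM in it and at 7.60 CPM or less in the other 8 uterus libraries. ARE+/- replicate 3 also differed from its group: the complement gene C3 stood at 4393 CPM in it, and the neutrophil gene S100a9 at 1.10 CPM against 66.9 and 117 CPM in the other ARE+/- libraries. Where leaving out 1 ARE-/- or ARE+/- library turned the sign of a list median given below or moved it by over 1.5 times, the value without it, or the range, is given beside it.

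**Figure D1:**
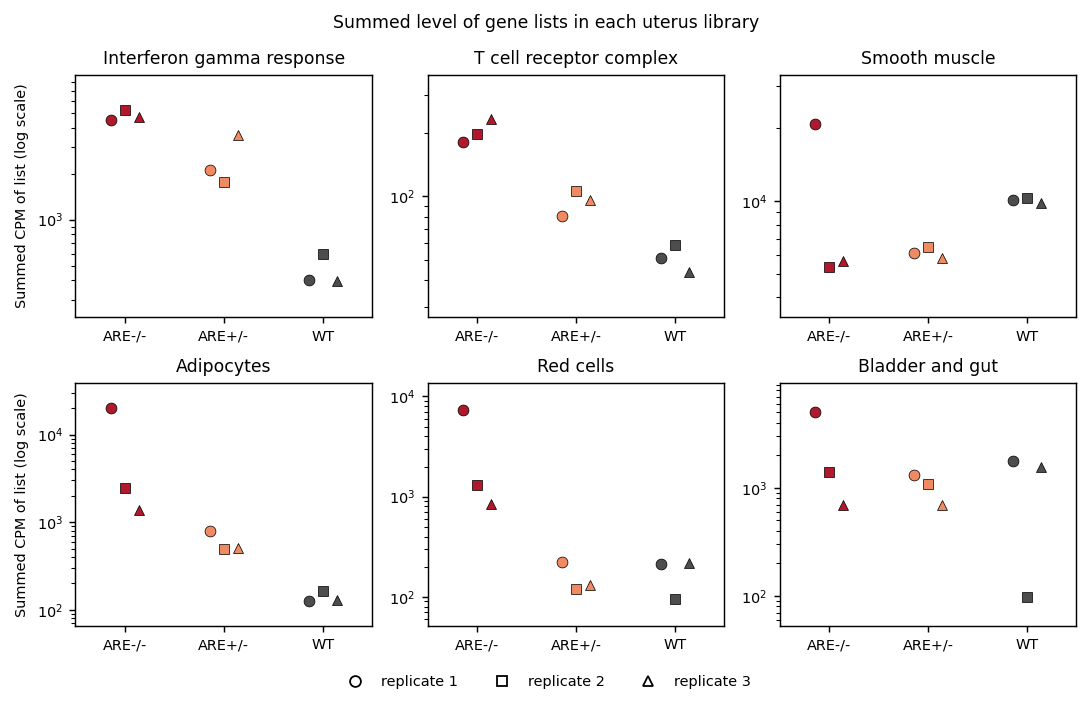
Summed CPM (log scale) of the members of 6 gene lists in each uterus library, with ARE-/-, ARE+/- and WT from left to right and a marker shape for each replicate number. The 3 ARE-/- libraries lie above the 3 ARE+/- libraries for the interferon gamma response, T cell receptor, adipocyte and red cell lists, and ARE-/- replicate 1 lies highest for smooth muscle, adipocytes, red cells, and bladder and gut.

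The ligand itself was low. Ifng stood at 2.67, 3.15 and 1.68 CPM in ARE-/- uteri, against 1.10, 0.921 and 1.93 CPM in ARE+/- uteri and 0.107, 0.128 and 0 CPM in WT uteri. The groups overlapped, since ARE-/- replicate 3 lay below ARE+/- replicate 3, and the log2 fold change was 0.93 ± 0.65 (SE). ARE+/- against WT, which shares the ARE+/- libraries with it, had a log2 fold change of 4.01 and an edgeR adjusted p of 0.0469. Of the signalling chain, the receptor genes Ifngr1 and Ifngr2 and the kinase gene Jak2 overlapped between ARE-/- and ARE+/- uteri, at log2 fold changes of 0.22 ± 0.15, -0.28 ± 0.26 and -0.46 ± 0.32. Socs1, an inhibitor of the pathway, overlapped (0.58 ± 0.35), as did the transcription factor genes Irf1 (0.44 ± 0.20) and Irf8 (0.36 ± 0.19).

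Genes that respond to interferon gamma were higher as a group in ARE-/- uteri. Of 34 tested members of that list, 20 had all ARE-/- libraries above all ARE+/- libraries and none had them below, beside 4.77% and 4.3% of all genes. The median log2 fold change was 1.01, beside 0.01 over all genes, and 33 members had a positive value; without ARE-/- replicate 1 the median was 1.05. No member passed edgeR at 0.05, 23 had an unadjusted p under 0.05, all higher (22 without ARE-/- replicate 1), and DESeq2 called 8. The summed level of the list was 4493, 5225 and 4672 CPM in ARE-/- uteri, against 2113, 1752 and 3605 CPM in ARE+/- uteri and 394 to 594 CPM in WT uteri. ARE+/- replicate 3 lay closest to the ARE-/- libraries.

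Cxcl9 had the smallest p of all genes. It encodes a chemokine that draws activated T cells through the receptor CXCR3 and lies on chromosome 5 from 92469206 to 92475938, minus strand, in the GENCODE M32 annotation. It stood at 110.4, 84.1 and 50.8 CPM in ARE-/- uteri, against 16, 10.8 and 20.4 CPM in ARE+/- uteri and 1.24 to 1.61 CPM in WT uteri. The lowest ARE-/- library was above the highest ARE+/- library, and that above every WT library. The log2 fold change was 2.38 ± 0.32, with an edgeR adjusted p of 0.468 that ranged from 0.0330 to 1 over 16 alternatives; the lowest came from the fit without a filter, which called Cxcl9 alone. Cxcl10, a second ligand of the same receptor, stood at 19.4, 39.7 and 22.1 CPM in ARE-/- uteri, against 11.2, 6.80 and 17.9 CPM in ARE+/- uteri. Its groups did not overlap (1.18 ± 0.43), though ARE+/- replicate 3 came close to ARE-/- replicate 1.

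The GTPase genes differed in how far apart the genotypes lay. Gbp2, which encodes a guanylate-binding protein that acts on intracellular microbes, stood at 374, 339.5 and 312 CPM in ARE-/- uteri, against 165, 109 and 298 CPM in ARE+/- uteri. Iigp1, an immunity-related GTPase, stood at 449, 686 and 503 CPM in ARE-/- uteri, against 232, 162 and 364 CPM in ARE+/- uteri. Neither gene overlapped (0.84 ± 0.33 and 1.11 ± 0.31), and in both ARE+/- replicate 3 was the highest of its group. Gbp8 had 63.1, 86.6 and 71.3 CPM in ARE-/- uteri, against 24.7, 21.3 and 45.4 CPM in ARE+/- uteri (1.27 ± 0.28). Irgm1, another immunity-related GTPase, overlapped at 177, 231 and 210.1 CPM in ARE-/- uteri, against 123, 118 and 228 CPM in ARE+/- uteri (0.40 ± 0.25). Copies within these GTPase families are alike and reads that mapped to several places were counted for each, so single members are uncertain.

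Other members differed in how far they followed. Vcam1, an adhesion molecule that binds lymphocytes on vessel walls, stood at 43.5, 37.5 and 43.9 CPM in ARE-/- uteri, against 22.9, 25.0 and 22.2 CPM in ARE+/- uteri (0.83 ± 0.17), with little spread in either group. Cd274, which encodes the T cell inhibitor PD-L1, stood at 41.2, 35.8 and 47.1 CPM in ARE-/- uteri, against 20.2, 16.4 and 28.9 CPM in ARE+/- uteri (0.92 ± 0.24). Both were clear of overlap. Ido1, a tryptophan-degrading enzyme, overlapped at 2.66 to 5.39 CPM in ARE-/- uteri, against 0.716 to 3.92 CPM in ARE+/- uteri, and Nos2, the inducible nitric oxide synthase, at 2.27 to 20.1 CPM in ARE-/- uteri, against 1.38 to 8.09 CPM in ARE+/- uteri. Slfn4, of the Schlafen family, was the 1 member with a negative value (-0.40 ± 0.52), and its groups overlapped.

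The step from ARE+/- to ARE-/- was set beside the step from WT to ARE+/-, with the caution that both use the same ARE+/- libraries. For the interferon gamma response list the median log2 fold change was 1.01 for ARE-/- against ARE+/- and 2.38 for ARE+/- against WT, with 0 and 24 members called by edgeR. Over all genes edgeR called 276 between ARE+/- and WT and 911 between ARE-/- and WT. In the authors' deposited table of a likelihood-ratio test over the genotypes, 514 genes had an adjusted p under 1e-04; of these, 238 had all ARE-/- libraries above all ARE+/- libraries, 13 below, and 263 overlapped. Their median log2 fold change here was 0.74, but that table was made from these same libraries and is no independent evidence.

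**Figure D2:**
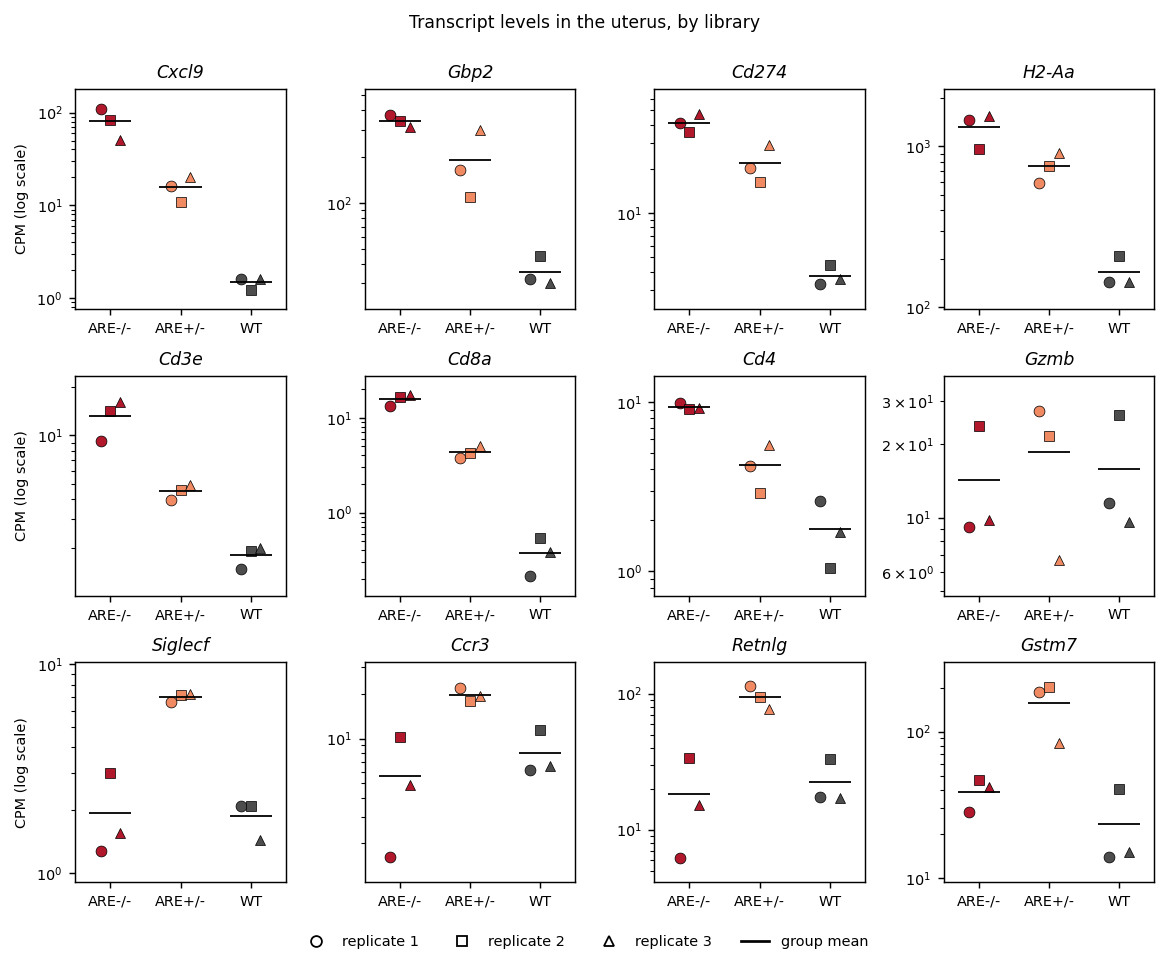
CPM (log scale) of 12 genes in each uterus library, with ARE-/-, ARE+/- and WT from left to right, a marker shape for each replicate number and a bar at the group mean. Cxcl9, Gbp2, Cd274, H2-Aa, Cd3e, Cd8a and Cd4 are highest in ARE-/- uteri, Gzmb overlaps, and Siglecf, Ccr3, Retnlg and Gstm7 are highest in the 3 ARE+/- libraries.

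Promoters were read to show which of these genes carry DNA letters known from interferon-responsive promoters. The windows run from 250 bases before to 50 after a gene's start, and are RefSeq's on GRCm38.p6. Both known motifs were searched on both strands: the gamma-activated site (TTCNNNGAA, its own reverse complement) and the interferon-stimulated response element (GAAA, any 2 letters and GAAA, or TTTC, any 2 letters and TTTC on the other strand; a match to one can share letters with a match to the other). Among 19 interferon gamma response genes with a window, 8 (42.1%) held the gamma-activated site and 12 (63.2%) the response element. Among all 13872 tested genes with a window these were 1179 (8.5%) and 543 (3.91%). Among the 686 genes whose ARE-/- libraries all lay above the ARE+/- libraries they were 73 (10.6%) and 50 (7.29%), and among the 550 that lay below, 51 (9.27%) and 17 (3.09%). The windows of Cxcl9, Gbp2, Irf1 and Irf8 are printed because they show a gene with no match, 1 response element, 1 gamma-activated site and 2 gamma-activated sites; matches stand in capitals. They are chr5:92328030-92328329 (minus strand), chr3:142620413-142620712, chr11:53769764-53770063 and chr8:120736108-120736407 (plus strand), where those of Irf1 and Irf8 are the first of 2 listed for the gene.
Cxcl9: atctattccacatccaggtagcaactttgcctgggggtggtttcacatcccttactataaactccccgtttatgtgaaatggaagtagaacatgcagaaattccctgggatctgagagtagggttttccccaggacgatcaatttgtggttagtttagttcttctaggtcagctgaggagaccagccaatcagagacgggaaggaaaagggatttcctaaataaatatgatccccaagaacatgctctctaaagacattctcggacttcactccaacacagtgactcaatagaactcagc
Gbp2: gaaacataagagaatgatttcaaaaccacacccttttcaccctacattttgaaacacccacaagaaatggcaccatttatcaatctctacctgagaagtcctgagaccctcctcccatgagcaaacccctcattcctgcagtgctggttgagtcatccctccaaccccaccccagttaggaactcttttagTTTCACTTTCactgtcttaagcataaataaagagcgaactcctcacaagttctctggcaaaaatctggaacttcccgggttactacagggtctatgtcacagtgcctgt
Irf1: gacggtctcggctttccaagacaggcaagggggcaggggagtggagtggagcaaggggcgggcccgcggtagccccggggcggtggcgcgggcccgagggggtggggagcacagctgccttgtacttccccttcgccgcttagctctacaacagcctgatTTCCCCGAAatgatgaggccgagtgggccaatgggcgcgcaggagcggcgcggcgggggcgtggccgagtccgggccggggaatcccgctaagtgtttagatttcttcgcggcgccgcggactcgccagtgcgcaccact
Irf8: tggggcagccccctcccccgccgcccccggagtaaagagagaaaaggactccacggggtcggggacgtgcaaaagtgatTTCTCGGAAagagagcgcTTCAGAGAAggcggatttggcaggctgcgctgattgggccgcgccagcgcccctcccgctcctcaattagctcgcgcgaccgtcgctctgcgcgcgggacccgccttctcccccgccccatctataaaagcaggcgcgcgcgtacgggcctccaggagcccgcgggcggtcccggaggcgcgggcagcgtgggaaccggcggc
The response element of Gbp2 lies 59 bases before its start and the site of Irf1 lies 90 bases before its start. Those of Irf8 lie 171 and 153 bases before its start. A match describes letters and shows no binding, and the absence of one in the Cxcl9 window says only that these letters are not in it.

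Every tested gene of 3 antigen presentation lists had a positive log2 fold change, and none passed edgeR. Of 15 genes for MHC class I chains, all had a positive log2 fold change (median 0.46), 3 had no overlap and 4 had an unadjusted p under 0.05. H2-K1, which encodes a heavy chain that shows peptides to CD8 T cells, stood at 4168, 2796 and 3671 CPM in ARE-/- uteri, against 1921, 2242 and 3096 CPM in ARE+/- uteri (0.55 ± 0.24). The groups overlapped through ARE+/- replicate 3. H2-T22, a class I-like gene, did not overlap, at 341, 232 and 263 CPM in ARE-/- uteri, against 138, 162 and 220.3 CPM in ARE+/- uteri (0.69 ± 0.24). Class I genes have near-identical copies, so their single values are uncertain.

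Of 14 genes for the immunoproteasome and peptide loading, all were positive (median 0.47) and 4 did not overlap. ARE-/- replicate 1 was the highest of the 9 uterus libraries for 8 of the 14, and without it the median was 0.23. Psmb9, an interferon-induced proteasome subunit, stood at 162, 122 and 112 CPM in ARE-/- uteri, against 73.8, 73.5 and 98.9 CPM in ARE+/- uteri (0.69 ± 0.23). The peptide transporter gene Tap2 stood at 204, 138 and 146 CPM in ARE-/- uteri, against 103, 100 and 120.2 CPM in ARE+/- uteri (0.59 ± 0.21). In both genes every ARE-/- library was above every ARE+/- library. All 11 MHC class II genes were positive (median 0.79) and 2 did not overlap, although 8 had an unadjusted p under 0.05. H2-Aa, a class II chain, stood at 1451, 957 and 1545 CPM in ARE-/- uteri, against 590.4, 752 and 911 CPM in ARE+/- uteri (0.81 ± 0.27). The gap between the nearest libraries was narrow, and Ciita, the master regulator of class II genes, overlapped (0.73 ± 0.34), as did Nlrc5, its class I counterpart (0.45 ± 0.27). No member of these 3 lists passed edgeR or DESeq2.

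T cell transcripts were higher in ARE-/- uteri. In whole tissue, more T cells and more RNA per T cell cannot be told apart. Whether lymphoid tissue was sampled with the organ was not tested. Of 17 genes of the T cell receptor complex and its signalling, 13 had all ARE-/- libraries above all ARE+/- libraries, none had them below, and all 17 had a positive log2 fold change (median 1.13). Without ARE-/- replicate 1 the median was 1.29. No member passed edgeR, 14 had an unadjusted p under 0.05 (16 without ARE-/- replicate 1) and DESeq2 called 9. Their summed level was 181, 197 and 231 CPM in ARE-/- uteri, against 80.8, 106 and 96.1 CPM in ARE+/- uteri and 43.8 to 58.5 CPM in WT uteri.

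Cd3e, a signalling chain of the T cell receptor on chromosome 9 from 44910038 to 44920911, stood at 9.19, 14.1 and 16.1 CPM in ARE-/- uteri, against 3.98, 4.60 and 4.91 CPM in ARE+/- uteri (1.55 ± 0.28). Cd3g, its neighbour and partner chain, stood at 15.2, 17.2 and 18.4 CPM in ARE-/- uteri, against 4.96, 6.78 and 6.04 CPM in ARE+/- uteri (1.52 ± 0.23). Trbc2, the constant part of the receptor's beta chain, stood at 37.6, 25.7 and 30.8 CPM in ARE-/- uteri, against 10.2, 14 and 10.7 CPM in ARE+/- uteri (1.43 ± 0.23). All 3 genes were well clear of overlap, and the lowest ARE-/- library was not the same one in each.

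The coreceptor of cytotoxic T cells followed. Cd8a, on chromosome 6 from 71350411 to 71356157, stood at 13.2, 16.7 and 17.2 CPM in ARE-/- uteri, against 3.81, 4.29 and 5.05 CPM in ARE+/- uteri and 0.214 to 0.533 CPM in WT uteri (1.84 ± 0.32). Cd8b1, the other chain, stood at 8.78, 6.08 and 9.43 CPM in ARE-/- uteri, against 1.55, 3.09 and 2.76 CPM in ARE+/- uteri (1.71 ± 0.35). The 3 genotypes did not overlap in either gene. Gzmk, a granzyme of memory T cells, stood at 2.94, 3.15 and 4.04 CPM in ARE-/- uteri, against 0.568, 0.690 and 0.442 CPM in ARE+/- uteri (2.57 ± 0.68). By contrast Gzmb, the granzyme of activated killer cells, overlapped at 9.16, 23.8 and 9.82 CPM in ARE-/- uteri, against 27.4, 21.6 and 6.68 CPM in ARE+/- uteri (-0.38 ± 0.58). Prf1, the pore-forming perforin, overlapped too (-0.08 ± 0.48). Of 19 genes of CD8 and cytotoxic cells, 7 lay above and none below (median 0.56, and 0.35 without ARE-/- replicate 3).

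Cd4, the coreceptor of helper T cells, stood at 9.83, 9.03 and 9.25 CPM in ARE-/- uteri, against 4.20, 2.92 and 5.6 CPM in ARE+/- uteri (1.14 ± 0.37). Foxp3, the factor of regulatory T cells, overlapped at 13.8, 9.05 and 11.1 CPM in ARE-/- uteri, against 10.1, 8.36 and 8.69 CPM in ARE+/- uteri (0.32 ± 0.25). Of 12 CD4 and regulatory T cell genes, 4 lay above and none below. The median was 0.50, and 0.31 and 0.30 without ARE+/- replicate 1 and ARE+/- replicate 2. Of the 4, Gata3, a factor of type 2 helper T cells and of bladder epithelium, was at 55.4 CPM in ARE-/- replicate 1 and at 5.59 and 5.45 CPM in the other ARE-/- uteri; its log2 fold change was 2.72, and 0.72 without that library. The costimulator gene Icos lay above (1.63 ± 0.42), as did the inhibitor gene Ctla4 (1.71 ± 0.71), while Pdcd1, which encodes PD-1, overlapped (1.08 ± 0.77). Among T cell recruiting chemokines and receptors, 6 of 14 lay above and none below (median 1.11, and 0.66 without ARE-/- replicate 1). Of 13 monocyte chemokines and receptors none lay above and 1, Ccr3, lay below; the median was 0.06, and from -0.25 to 0.27 with a library left out. Cxcr3, the receptor for Cxcl9, stood at 14.2, 11.9 and 15.6 CPM in ARE-/- uteri, against 5.26, 7.06 and 7.62 CPM in ARE+/- uteri (1.06 ± 0.26). Cxcr6, found on tissue-dwelling T cells, stood at 11.3, 23.6 and 28.4 CPM in ARE-/- uteri, against 7.06, 7.29 and 10.3 CPM in ARE+/- uteri (1.36 ± 0.33). Neither receptor gene overlapped.

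**Figure D3:**
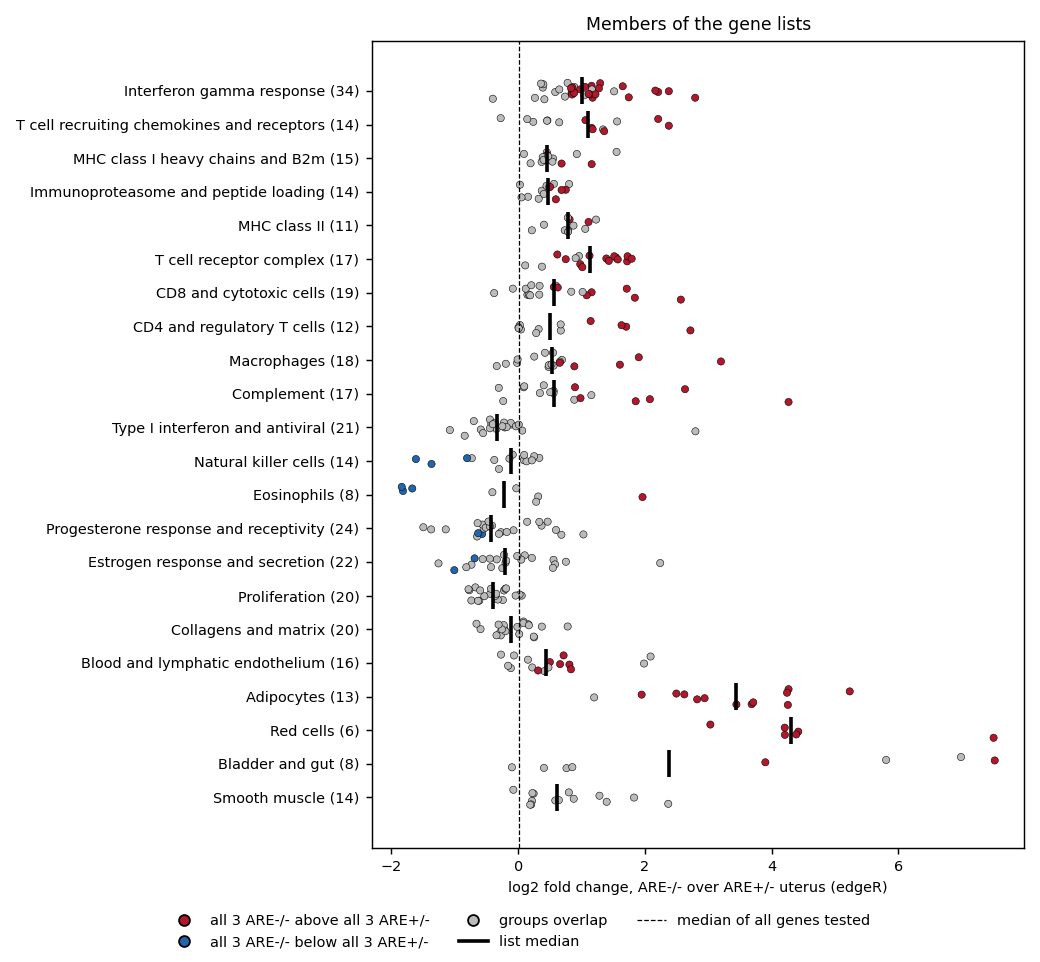
Log2 fold change, ARE-/- over ARE+/- uterus, of each tested member of 22 gene lists (number tested in brackets), with a bar at the list median and a dashed line at the median of all genes. Most interferon gamma response and T cell receptor members lie to the right with their groups apart, type I interferon and proliferation members lie mostly to the left with their groups overlapping, and adipocyte and red cell members lie farthest right.

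Genes of type I interferon and antiviral defence did not share the direction of the interferon gamma response. Of 21 tested, 18 had a negative log2 fold change (median -0.34), none was free of overlap and 1 had an unadjusted p under 0.05. Isg15, a ubiquitin-like protein, stood at 21.3, 14.8 and 16.6 CPM in ARE-/- uteri, against 19.6, 20.8 and 37.1 CPM in ARE+/- uteri (-0.55 ± 0.36). Oasl1, an oligoadenylate synthetase-like protein, stood at 5.64, 6.58 and 20.0 CPM in ARE-/- uteri, against 11.6, 13.4 and 43.0 CPM in ARE+/- uteri (-1.08 ± 0.59). In both genes ARE+/- replicate 3 was the highest library. It was the highest of the 9 uterus libraries for 19 of the 21 genes, and without it the median was 0.23, so the direction of the list rested on that library. Isg15 and Oasl1 were at -0.20 and -0.23 without it. The median was -0.57 with ARE+/- replicate 1 left out, and -0.18 and -0.52 with ARE-/- replicate 1 or 3 left out. The 1 member with a low p, Ifi27l2a, was at 840.1 CPM in ARE-/- replicate 1 and at 62.0 and 83.6 CPM in the other ARE-/- uteri.

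Of 14 natural killer cell genes, none lay above and 3 lay below. The median was -0.11, and from -0.27 without ARE-/- replicate 2 to 0.09 without ARE-/- replicate 1. All 3 that lay below were Ly49 receptor genes, whose family has near-identical copies. Klra8, which encodes the receptor Ly49H, stood at 0.972, 2.54 and 3.59 CPM in ARE-/- uteri, against 4.11, 9.03 and 8.64 CPM in ARE+/- uteri and 8.69 to 13.2 CPM in WT uteri (-1.61 ± 0.48). Klra4 had 0.944, 2.42 and 2.81 CPM in ARE-/- uteri, against 4.22, 6.70 and 5.05 CPM in ARE+/- uteri (-1.37 ± 0.44). The activating receptor gene Ncr1 overlapped, at 1.89, 7.55 and 4.01 CPM in ARE-/- uteri, against 4.73, 5.73 and 4.36 CPM in ARE+/- uteri. The lowest value of Klra8, Klra4 and Ncr1 was in each case that of ARE-/- replicate 1.

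The lower genes with the smallest p were highest in ARE+/- uteri. Picking genes by their fall from the ARE+/- libraries favours genes that are high in those libraries. For these genes and those of the next paragraph, a peak over WT is therefore no independent support. Siglecf, a lectin of mouse eosinophils on chromosome 7 from 43000765 to 43008955, stood at 1.28, 3.00 and 1.56 CPM in ARE-/- uteri, against 6.59, 7.11 and 7.23 CPM in ARE+/- uteri and 1.43 to 2.09 CPM in WT uteri (-1.84 ± 0.37). ARE+/- uteri lay above both other genotypes, and ARE+/- against WT, which uses the same ARE+/- libraries, was 1.90 with an edgeR adjusted p of 0.0473. Ccr3, the eotaxin receptor, stood at 1.61, 10.3 and 4.85 CPM in ARE-/- uteri, against 22, 17.7 and 19.4 CPM in ARE+/- uteri and 6.11 to 11.3 CPM in WT uteri (-1.82 ± 0.55). Il5ra, the receptor for the eosinophil growth factor interleukin 5, stood at 0.278, 1.69 and 0.509 CPM in ARE-/- uteri, against 2.56, 2.28 and 3.15 CPM in ARE+/- uteri (-1.67 ± 0.59). These 3 of 8 tested eosinophil genes lay below, and 1, the chemokine gene Ccl24, lay above. The median of the list was -0.22, and from -0.82 without ARE-/- replicate 2 to 0.08 without ARE-/- replicate 1. The lowest value of Siglecf, Ccr3 and Il5ra was in each case that of ARE-/- replicate 1. The granule genes Epx, Ear1 and Ear6 of the same list failed the filter and were not tested.

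Retnlg, a resistin-like protein of neutrophils, stood at 6.16, 33.5 and 15.2 CPM in ARE-/- uteri, against 114, 94.9 and 77.2 CPM in ARE+/- uteri and 17.1 to 33.0 CPM in WT uteri (-2.38 ± 0.54). Gstm7, a glutathione transferase, stood at 28.1, 46.4 and 42.1 CPM in ARE-/- uteri, against 187, 201 and 83.3 CPM in ARE+/- uteri and 13.9 to 40.6 CPM in WT uteri (-2.02 ± 0.47). Both peaked in ARE+/- uteri without overlap. Alox5, the enzyme that starts leukotriene synthesis, had the same order at 4.19, 5.11 and 3.47 CPM in ARE-/- uteri, against 10.4, 10.6 and 8.94 CPM in ARE+/- uteri and 4.26 to 5.89 CPM in WT uteri (-1.23 ± 0.26). The immunoglobulin segment gene Ighv10-1 had it as well, at 0.719 to 1.5 CPM in ARE-/- uteri, against 2.87 to 5.19 CPM in ARE+/- uteri and 0.555 to 0.905 CPM in WT uteri (-1.97 ± 0.41). Other neutrophil genes did not share it: S100a9 overlapped at 79.3, 61.6 and 88.3 CPM in ARE-/- uteri, against 117, 66.9 and 1.10 CPM in ARE+/- uteri, and of 15 tested only Retnlg lay below and none lay above.

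Macrophage and complement genes lay higher in ARE-/- uteri where their groups were apart. Of 18 macrophage genes, 5 lay above and none below (median 0.54, and 0.23 without ARE-/- replicate 3). Cd163, a scavenger receptor of resident macrophages, stood at 21.6, 9.56 and 8.71 CPM in ARE-/- uteri, against 4.47, 2.43 and 3.75 CPM in ARE+/- uteri (1.90 ± 0.40). Timd4, a receptor for dying cells, stood at 10.4, 2.66 and 2.40 CPM in ARE-/- uteri, against 0.454, 0.511 and 0.718 CPM in ARE+/- uteri (3.20 ± 0.82). Both were highest in ARE-/- replicate 1. The pan-macrophage gene Adgre1 overlapped at 52.9, 94.8 and 232 CPM in ARE-/- uteri, against 85.2, 99.9 and 133 CPM in ARE+/- uteri (0.25 ± 0.44).

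Of 17 complement genes, 6 lay above and none below, and DESeq2 called 5. The median was 0.56; it was 1.08 with ARE+/- replicate 3 left out, and 0.93 and 0.34 with ARE-/- replicate 2 or 3 left out. C4b, a component of the classical and lectin pathways, stood at 1561, 534 and 1040 CPM in ARE-/- uteri, against 197, 214 and 456 CPM in ARE+/- uteri (1.85 ± 0.42). C6, part of the membrane attack complex, stood at 17.7, 6.51 and 13.9 CPM in ARE-/- uteri, against 2.23, 2.66 and 4.14 CPM in ARE+/- uteri (2.08 ± 0.41). Neither overlapped. C3, the central component, overlapped widely at 2905, 1050 and 3803 CPM in ARE-/- uteri, against 479.5, 398 and 4393 CPM in ARE+/- uteri (0.56 ± 0.85), with ARE+/- replicate 3 the highest of all. Its log2 fold change was 2.55 without that library and 0.08 without ARE+/- replicate 2.

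Genes of uterine function mostly overlapped. Of 24 genes of progesterone response and receptivity, 2 lay below and none above. The median was -0.43, and nearer to 0 without ARE-/- replicate 1 (-0.24) or ARE-/- replicate 3 (-0.23). Pgr, the progesterone receptor gene, stood at 46.4, 247 and 65.2 CPM in ARE-/- uteri, against 188, 177 and 123 CPM in ARE+/- uteri (-0.45 ± 0.62, and from -1.55 to -0.06 with an ARE-/- library left out). Ihh, which relays the progesterone signal from epithelium to stroma, stood at 7.69, 23.6 and 8.59 CPM in ARE-/- uteri, against 38.6, 37.4 and 12.2 CPM in ARE+/- uteri (-1.14 ± 0.76). In both genes ARE-/- replicates 1 and 3 lay below every ARE+/- library, and ARE-/- replicate 2 did not. Msx1, a homeobox gene of the receptive uterus, lay below, at 106, 167 and 119 CPM in ARE-/- uteri, against 178, 229.8 and 199 CPM in ARE+/- uteri (-0.63 ± 0.34).

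Of 22 estrogen response genes, 2 lay below and none above (median -0.21). The sign was not stable: the median was 0.31 without ARE+/- replicate 3, which was the highest uterus library for 9 of the 22, and 0.08 without ARE-/- replicate 2. It was -0.40 and -0.38 without ARE+/- replicate 1 and ARE+/- replicate 2. The secreted proteins lactotransferrin (Ltf, 0.05 ± 0.67) and lipocalin 2 (Lcn2, -0.20 ± 1.47) overlapped, Lcn2 standing at 153, 91.9 and 1823 CPM in ARE-/- uteri, against 187, 217 and 1971 CPM in ARE+/- uteri. Its high library was replicate 3 in either genotype. Of 20 proliferation genes, 18 had a negative value (median -0.40) and all 20 overlapped. The median was -0.73 without ARE+/- replicate 3, -0.21 and -0.14 without ARE+/- replicates 1 and 2, and -0.25 without ARE-/- replicate 1. Mki67, a marker of dividing cells, stood at 30.2, 67.4 and 50.7 CPM in ARE-/- uteri, against 76.6, 84.9 and 26.9 CPM in ARE+/- uteri (-0.35 ± 0.42). All 20 collagen and matrix genes overlapped (median -0.11, and from -0.22 to 0.02 with a library left out), with Col1a1 at 1771, 2601 and 1424 CPM in ARE-/- uteri, against 2913, 2744 and 1391 CPM in ARE+/- uteri. The stage of the cycle was not given, so its part in these values was not tested.

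Genes of fat, blood and other tissues had the highest list medians. DESeq2 called 10 adipocyte genes and 8 genes of the major urinary protein family. It also called 7 of the 7 red cell genes, of which edgeR tested 6. In the ovary, bladder and gut, and smooth muscle lists it called 0. Of 13 adipocyte genes, 12 lay above (median 3.45), and without ARE-/- replicate 1 the median was 1.67. Their summed level was 19920, 2458 and 1393 CPM in ARE-/- uteri, against 788, 497 and 502 CPM in ARE+/- uteri and 127 to 165 CPM in WT uteri. Plin1, which coats fat droplets, stood at 641, 125 and 64.0 CPM in ARE-/- uteri, against 28.0, 17.0 and 18.3 CPM in ARE+/- uteri (3.71 ± 0.78, and 2.17 without ARE-/- replicate 1). Each ARE-/- library was above each ARE+/- library, and replicate 1 was far above the other ARE-/- libraries. Cyp2e1, a cytochrome P450 of liver and fat, stood at 953.8, 86.2 and 105 CPM in ARE-/- uteri, against 15, 11.3 and 20.0 CPM in ARE+/- uteri (4.63 on the log2 scale). Without ARE-/- replicate 1 edgeR called it, and it alone (2.63, adjusted p 0.0319, in a range from 0.0319 to 1 over 16 alternatives); it was singled out after its values were seen.

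All 6 tested red cell genes lay above (median 4.30, and 2.76 without ARE-/- replicate 1). Hba-a2, a globin gene with near-identical copies, stood at 2101, 347 and 223 CPM in ARE-/- uteri, against 62.3, 30.6 and 34.5 CPM in ARE+/- uteri. All 9 tested genes of the major urinary protein family, also near-identical, lay above (median 2.62); Mup14 stood at 11.9, 5.33 and 4.91 CPM in ARE-/- uteri, against 1.74, 0.972 and 1.05 CPM in ARE+/- uteri, and had no count in WT uteri. Ovary genes had a median of 2.27, and -0.33 without ARE-/- replicate 1. The same pair of medians was 2.38 and 0.39 for bladder and gut genes, and 0.61 and -0.08 for smooth muscle genes. Inha, an ovarian hormone subunit gene, stood at 141, 8.81 and 8.62 CPM in ARE-/- uteri, against 12.9, 12.4 and 7.56 CPM in ARE+/- uteri. Summed smooth muscle genes were at 20780, 5338 and 5670 CPM in ARE-/- uteri, against 6102, 6442 and 5831 CPM in ARE+/- uteri. The part of fat, blood and these other tissues in the immune results was not tested. Leaving out ARE-/- replicate 1 does not test it, since the adipocyte and red cell medians were still 1.67 and 2.76 without that library.

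**Figure D4:**
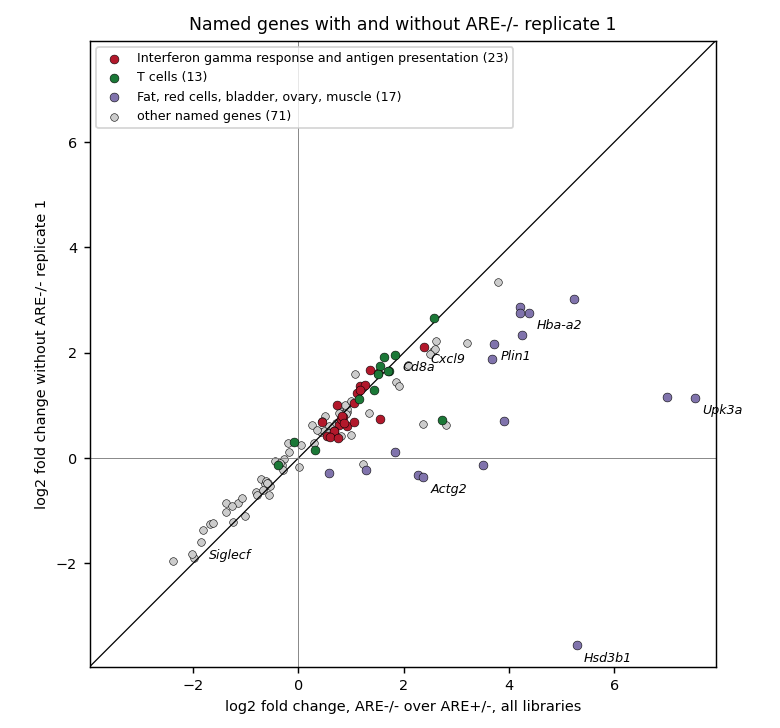
Log2 fold change, ARE-/- over ARE+/- uterus, of 124 named genes with all libraries (x axis) and without ARE-/- replicate 1 (y axis), with the line of equality. Most interferon gamma response and T cell genes lie near the line, with exceptions such as Gata3 at 2.72 and 0.72, and most genes of fat, red cells, bladder, ovary and muscle lie below it.

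The ovary gives the same comparison in other libraries of the series. There edgeR called 12 of 24457 genes between ARE-/- and ARE+/- ovaries (0.0491%), all higher. They were the GTPase genes Irgm1, Tgtp1, Tgtp2, Ifi47 and Gm12185, the class I genes H2-K1, H2-Q4, H2-Q6 and H2-Q7, and the antigen processing genes Tap1, Psmb8 and Psmb9. In the uterus their log2 fold changes ran from 0.39 for H2-Q4 to 0.91 for Ifi47, and 6 of the 12 overlapped. Cxcl9 had a log2 fold change of 1.62 ± 0.27 in the ovary and Cd8a one of 1.40 ± 0.27, beside 2.38 ± 0.32 and 1.84 ± 0.32 in the uterus. The median over the interferon gamma response list was 1.13 in the ovary, over the T cell receptor list 1.08, over the adipocyte list 0.18 and over the red cell list 0.45. A test of the difference between the tissues over all 18 libraries called 0 of 26682 genes in edgeR (0%, smallest adjusted p 0.946), with 1393 at an unadjusted p under 0.05; it was not run in DESeq2. No gene can therefore be said to respond in 1 tissue and not in the other. The labels do not say whether a uterus and an ovary came from the same mouse, and this test did not pair them.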

How the data were processed

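Total RNA of uterus and ovary was sequenced with paired ends, per the labels' protocols. The deposited counts per gene come from featureCounts 2.0.4 run by the authors on GENCODE M32, per the file headers, without a strand option and counting reads that map to several places for each place; antisense and near-identical genes are therefore uncertain. Reads were aligned with STAR to mm10, per the submitters' processing notes, although GENCODE M32 annotates a later build; coordinates are as the files give them, and promoter windows are RefSeq's on GRCm38.p6. Gene lengths in the deposited tables entered no result. Of low counts, 68.1% to 76.0% were even in the uterus libraries. Whether both reads of a pair were counted was not tested, so a count may not stand for 1 fragment. The authors also deposited adjusted p-values of a likelihood-ratio test (the submitters' processing notes name DESeq2), which here only served to pick genes under their threshold of 1e-04. Symbols matched 52029 of 57010 IDs (91.3%), which hold 96.1% of uterus counts.

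The test was edgeR 4.0.16 under R 4.3.3 (TMM scaling, filterByExpr, robust quasi-likelihood F-test, Benjamini-Hochberg adjustment, threshold 0.05) over the 9 uterus libraries with 1 mean per genotype; SE is the size of the log2 fold change over the root of F. DESeq2 1.42.0, other scalings and filters, 6 libraries only, a replicate block and leaving out each library were the alternatives. The fit was also run on simulated data, from which no value is given here. The values above come from fits without pairing, and only the replicate block treats same-numbered libraries as pairs. Deviations of same-numbered ARE-/- and ARE+/- libraries had correlations of 0.101, 0.111 and 0.343 over genes. Pairs with different numbers ran from -0.295 to 0.184, the highest being above 2 of the same-numbered values. These values do not settle whether the numbers pair the libraries, and the labels do not say what a number marks. Replicates differed by more than sampling noise, so none was a copy. A further result is not reported here.

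The members, the 39 gene lists (553 of 590 distinct genes tested) and the rule for named genes were chosen with earlier results of these data known. Named genes are a fixed set, the 5 with the smallest p in each direction and the 3 with the smallest p of each list; others were chosen after their values were seen. "Above" and "below" mean that all 3 ARE-/- libraries lay above or below all 3 ARE+/- libraries.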

Additional observations from a re-analysis of the deposited data

Results flagged for a closer look

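Ccr3, the eotaxin receptor gene, differed in opposite directions in the 2 tissues. Its log2 fold change, ARE-/- against ARE+/-, was -1.82 in the uterus and 2.32 in the ovary, a difference of -4.13. In the ovary it stood at 0.704, 2.54 and 2.78 CPM in ARE-/- mice, against 0.627, 0.170 and 0.411 CPM in ARE+/- mice. Gata2, a transcription factor gene of mast cells and uterine stroma, had log2 fold changes of -0.57 in the uterus and 0.24 in the ovary, a difference of -0.80. In the ovary it stood at 59.7, 53.7 and 53.0 CPM in ARE-/- mice, against 48.8, 43.0 and 49.3 CPM in ARE+/- mice. Both differences failed the adjustment over all genes in the edgeR test of the difference (adjusted p 0.946 each). Both genes were picked because their ARE-/- libraries all lay below the ARE+/- libraries in the uterus and above them in the ovary. That separation is therefore no support for a difference.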

How the results depend on the processing

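The edgeR call of 0 genes held with RLE scaling, library totals, a stricter filter, 6 libraries and no robust option. DESeq2 called 175 genes higher and 13 lower, the fit without a filter called 1 higher, and leaving out 1 library called 0 to 1 higher and 0 lower. In the ovary the count of 12 was 38 without a filter and 0 to 14 with a library left out. The replicate block, which pairs same-numbered libraries, called 0 genes and changed no call; at an unadjusted p under 0.05 it gave 758 genes higher and 328 lower. Among single genes, Cma1 reversed to -0.12 with library totals, -0.005 without a filter and -0.29 with the block, and Ltf to -0.048 with library totals and -0.18 with the block; the cause was not tested.

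With 1 library left out, the log2 fold change ran from -0.97 to 0.012 for Gzmb, -0.64 to 0.31 for Prf1, -0.28 to 1.60 for Pdcd1, -0.53 to 0.63 for Adgre1, -0.62 to 0.58 for Cma1, -0.27 to 1.17 for S100a9, -0.74 to 0.40 for Ltf, -2.71 to 1.77 for Lcn2 and -0.60 to 1.03 for Lif. It ran from -0.28 to 0.87 for Acta2, -0.33 to 2.77 for Inha, -0.11 to 1.59 for Krt18, -0.36 to 2.86 for Actg2, -0.23 to 1.69 for Des, -0.12 to 4.06 for Amh and -3.56 to 5.87 for Hsd3b1. In the second group the lowest value was the one without ARE-/- replicate 1. Among genes that kept their sign, some moved by over 1.5 times, such as Gbp2 (0.56 to 1.32), Ciita (0.33 to 1.04), Icos (1.04 to 1.91), Ihh (-1.86 to -0.86) and Il5ra (-2.75 to -1.25).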

Other observations

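Of 16 B and plasma cell genes, 3 lay above and none below. Ighm, the IgM heavy chain gene, stood at 119.7, 121 and 122 CPM in ARE-/- uteri, against 55.6, 69.1 and 79.7 CPM in ARE+/- uteri (0.83 ± 0.22 SE). Of 18 cell death genes, 3 lay above and none below. The median was 0.18; it was 0.28 with ARE+/- replicate 3 left out, and 0.30 and 0.05 with ARE-/- replicate 1 or 3 left out. Casp1, the protease of the inflammasome, stood at 55.9, 56.4 and 59.3 CPM in ARE-/- uteri, against 36.5, 39.7 and 45.9 CPM in ARE+/- uteri (0.49 ± 0.15). Mlkl, which carries out necroptosis, stood at 24, 20.5 and 17.8 CPM in ARE-/- uteri, against 13.7, 12.2 and 15.5 CPM in ARE+/- uteri (0.59 ± 0.20). None of these genes passed edgeR at 0.05.

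Of 16 endothelial genes, 6 lay above and none below (median 0.45). Vwf, the clotting protein of vessel walls, stood at 125, 102 and 120.5 CPM in ARE-/- uteri, against 54.6, 78.8 and 77.6 CPM in ARE+/- uteri (0.72 ± 0.21). Plvap, a protein of capillary fenestrae, stood at 138, 73.2 and 66.9 CPM in ARE-/- uteri, against 59.1, 58.7 and 40.8 CPM in ARE+/- uteri and 75.9 to 81.8 CPM in WT uteri (0.81 ± 0.28, and 0.41 without ARE-/- replicate 1). All 14 dendritic cell genes overlapped (median 0.19, and from 0.08 to 0.24 with a library left out).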
